A study of Homo sapiens with 6 samples.

Results

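The metallothionein genes on chromosome 16 and *MTF1*, the gene of the metal-responsive transcription factor, were examined in HK-2 cells, an established human cell line derived from the proximal tubule of the kidney. The rule listed 7 genes, *MT1E*, *MT1F*, *MT1G*, *MT1M*, *MT1X*, *MT2A*, and *MTF1*, and took each row of the expression table whose Ensembl identifier carries such a symbol. It found 6 of the 7 among 29483 genes, and *MT1G* was not analysed here. All cells were kept in high glucose (HG) medium of 25 mM for 7 days. The control group (HG, 3 libraries) then received no TEPP-46, and the case group (3 libraries) received TEPP-46, an activator of the glycolytic enzyme PKM2, at 10 μM for 1 day. Both groups therefore carry the glucose exposure, no group at low glucose entered the comparison, and the labels do not say whether the control cells received a vehicle. The study describes the replicates as independent and treated separately, and does not say at which step the cultures were divided, so the P-values given for other genes measure the spread between these libraries.

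Metallothioneins are small cysteine-rich proteins of the cytosol that bind zinc and copper and, when exposed to it, cadmium. They buffer free zinc, and in the kidney the tubular epithelium is known to store metal with them. MTF1 senses zinc through its own zinc fingers and binds metal response elements, short sequences with the core TGCACNC or TGCGCNC that lie in several copies before metallothionein genes. It also acts on the gene of the zinc exporter SLC30A1. The listed genes were chosen with their values in this comparison known, so these values are described below and no test result is given for them.

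The sequences before the starts of *MT2A*, *MT1X*, and *SLC30A1* are shown because they hold the letters that MTF1 is known to bind. They run 5′ to 3′ over the 250 bases before each RefSeq start (GRCh38.p14), at chr16:56608334-56608583 (plus strand), chr16:56682220-56682469 (plus strand), and chr1:211579162-211579411 (minus strand), and capitals mark each match to TGCACNC or TGCGCNC on either strand, with overlapping matches counted separately.
MT2A: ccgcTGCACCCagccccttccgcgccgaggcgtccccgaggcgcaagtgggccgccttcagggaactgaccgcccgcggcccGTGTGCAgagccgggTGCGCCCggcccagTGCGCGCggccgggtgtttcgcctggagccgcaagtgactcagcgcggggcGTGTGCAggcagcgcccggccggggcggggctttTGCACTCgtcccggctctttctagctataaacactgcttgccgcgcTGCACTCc
MT1X: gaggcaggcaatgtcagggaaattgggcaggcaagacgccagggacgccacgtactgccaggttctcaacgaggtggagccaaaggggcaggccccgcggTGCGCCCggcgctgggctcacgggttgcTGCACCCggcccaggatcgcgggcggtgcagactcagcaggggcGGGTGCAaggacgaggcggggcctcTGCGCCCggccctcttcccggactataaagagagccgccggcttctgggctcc
SLC30A1: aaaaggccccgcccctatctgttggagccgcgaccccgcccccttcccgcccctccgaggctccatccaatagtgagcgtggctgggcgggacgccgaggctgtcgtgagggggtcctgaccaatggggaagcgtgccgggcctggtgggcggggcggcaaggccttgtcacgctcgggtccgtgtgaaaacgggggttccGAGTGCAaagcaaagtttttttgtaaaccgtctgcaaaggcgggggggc
The *MT2A* sequence held 7 matches, the *MT1X* sequence 4, and the *SLC30A1* sequence 1. Among 35116 promoters of the same length, 24.8% held at least 1 match, 0.37% held at least 4, and 0.0513% held at least 6. The window before *MTF1* and both windows before *SLC39A10*, a zinc importer gene described below, held 0 matches, which says only that these letters are not in them. A match is a description of letters and not a binding site shown in these cells. The table used for these sequences held 3 of the 7 listed genes, and no promoter is given for *MT1E*, *MT1F*, *MT1G*, or *MT1M*.

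Expression was given as FPKM, the reads of a gene per kilobase of its length and per unit of sequencing depth of its library. The reads recovered from these values numbered 18533883, 17825912, and 17284213 for control replicates 1, 2, and 3 and 16625333, 15963454, and 15282104 for case replicates 1, 2, and 3, so fewer reads on genes lay behind each case library than behind any control library. Summed over all genes, FPKM was higher in every case library (323755, 310111, and 322836) than in any control library (293828, 289245, and 295418). Since FPKM divides by length, the case reads lay on shorter genes on average, and the cause was not tested. The case libraries also differed more among themselves. For the control group, the SD of log2 values over replicates had a median of 0.089 across the 13599 genes tested, and for the case group it was 0.189. The epithelial keratin genes *KRT8* and *KRT18* had control means of 344.0 and 193.2 FPKM. *LRP2*, *CUBN*, *AQP1*, *SLC5A2*, and *SLC34A1*, which encode receptors, a channel, and transporters that define the proximal tubule in the kidney, stayed at no more than 12 reads in any library. Epithelial keratins were therefore abundant, and these defining markers of the proximal tubule were nearly absent. No measured fibroblast or endothelial marker reached 1 FPKM (*COL1A1* and *PECAM1* were the most abundant, with control means of 0.307 and 0.0288 FPKM). Of 3 leukocyte markers measured, *CD14* was at 0.806 FPKM in the control group and fell (log2(FC) = -1.24, SE 0.31, limma adjusted p = 0.0384, 7 to 31 reads a library), while *CD68* and *LYZ* had at most 1 read. The summed FPKM of the 3 was 0.907, 0.621, and 0.948 in the control libraries and 0.286, 0.231, and 0.306 in the case libraries. Most of this sum was *CD14* in every library, and its part in the results below was not tested. The listed leukocyte genes *PTPRC* and *CD3E* were not analysed here, so a leukocyte origin of *CD14* is not shown.

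Among the metallothionein genes, *MT2A*, the most abundant isoform here, had FPKM values of 571.8, 552.9, and 506.2 in the control libraries and 1138, 943.2, and 1141 in the case libraries. Every case library lay far above every control library. The means were 543.6 ± 33.8 and 1074 ± 113 FPKM (SD, n = 3 in each group), and after scaling between libraries the case mean was 2.09 times the control mean. As a description of the fit over all genes, log2(FC), the case minus the control mean of log2(scaled FPKM + 0.1), was 1.05 (SE 0.11). This gene (chr16:56608584-56609497, plus strand, ENSG00000125148) held rank 46 of all 29483 genes by control FPKM and rank 32 by case FPKM, and 11427 to 24705 reads a library lay behind it. In bulk RNA, a change in the share of cells that express a gene and a change in RNA per cell cannot be told apart.

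*MT1E* (chr16:56625475-56627112, plus strand, ENSG00000169715) encodes a second abundant metal-binding isoform. Its control values were 247.2, 221.8, and 219.6 FPKM, and its case values were 544.2, 548.4, and 677.3 FPKM. The groups lay apart by more than the range within either. The means were 229.5 ± 15.4 and 590.0 ± 75.6 FPKM (SD, n = 3), with 4014 to 10946 reads a library, and log2(FC) was 1.43 (SE 0.11). By mean FPKM the gene moved from rank 153 in the control group to rank 54 in the case group.

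*MT1M* and *MT1F*, whose products belong to the same metal-binding family, were expressed far lower. *MT1M* (chr16:56632659-56633981, plus strand, ENSG00000205364) had 4.44, 5.39, and 3.67 FPKM in the control group and 15.1, 15.6, and 19.8 FPKM in the case group. Its log2(FC) of 1.96 (SE 0.16) was the largest of the listed genes, and its scaled mean was 3.94 times that of the control group, on 60 to 287 reads a library. *MT1F* (chr16:56657731-56660698, plus strand, ENSG00000198417) had 3.69, 3.87, and 4.27 FPKM in the control group and 9.09, 11.2, and 13.7 FPKM in the case group. Its log2(FC) was 1.56 (SE 0.14), on 130 to 398 reads a library. For both genes the lowest case library was above the highest control library.

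*MT1X* (chr16:56682470-56684196, plus strand, ENSG00000187193), whose promoter is printed above, was close to the detection limit. It had 5, 7, and 16 reads in the control libraries and 19, 22, and 9 reads in the case libraries, so the groups overlapped. Summed over each group these were 28 reads (95% exact Poisson interval 18.6 to 40.5) and 50 reads (37.1 to 65.9), intervals that cover counting error only. Its mean FPKM was under the filter of 0.5, so it was not tested. Without the filter, log2(FC) was 0.89 (SE 0.45).

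**Figure D1:**
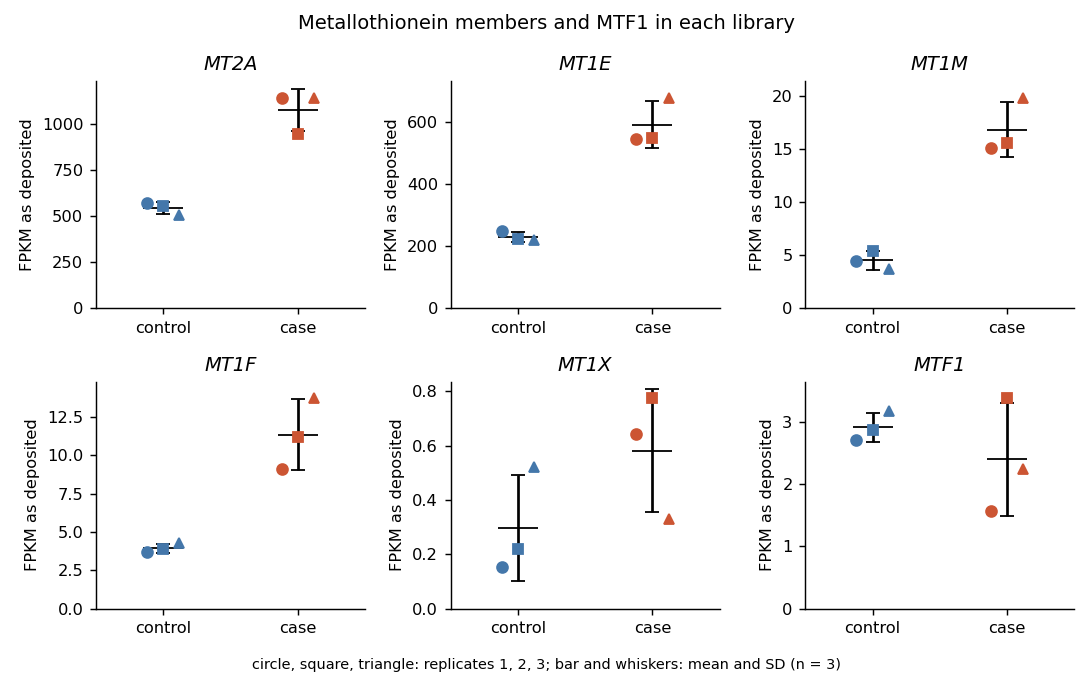
FPKM as deposited (vertical axes, each from 0) of the 6 listed genes found, in the control and the case libraries, with each library as a point and the mean and SD (n = 3) as a bar with whiskers. The points of *MT2A*, *MT1E*, *MT1M*, and *MT1F* lie apart between the groups, and those of *MT1X* and *MTF1* overlap.

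Of the 6 listed genes found, 5 passed the filter on low values. For the 4 metallothionein genes among them, every case library lay above every control library, as in 19.5% of all genes tested. Since the genes were chosen on this comparison, nothing is read from this count. The median log2(FC) of these 4 genes was 1.495, and that of all genes tested was -0.002. Single case libraries ranged from 1.77 times the control mean for *MT2A* in case replicate 2 to 4.63 times for *MT1M* in case replicate 3. On this scaled basis case replicate 3 was the highest for *MT1E*, *MT1F*, and *MT1M*, and case replicate 1, closely followed by case replicate 3, for *MT2A*.

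In these libraries the isoforms did not move in proportion, which is a description and was not tested. Summed over the listed metallothionein genes, expression was 827.3, 784.1, and 734.2 FPKM in the control libraries and 1707, 1519, and 1852 FPKM in the case libraries. That sum made up 0.267% of all FPKM on average in the control libraries and 0.530% in the case libraries. *MT2A* made up 69.1%, 70.5%, and 68.9% of the sum in the control libraries and 66.7%, 62.1%, and 61.6% in the case libraries. Its share was lower in every case library, by 6.07 percentage points between the means of 69.5% ± 0.859 and 63.5% ± 2.79 (SD, n = 3). The share of *MT1E* averaged 29.4% ± 0.930 in the control libraries and 34.9% ± 2.58 in the case libraries. For each FPKM of *MT2A*, *MT1E* had 0.432, 0.401, and 0.434 FPKM in the control libraries and 0.478, 0.581, and 0.594 FPKM in the case libraries. These shares are taken within a library and do not depend on the scaling between libraries, but they do depend on the gene lengths used.

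Other genes of the family lie in the same cluster. *MT1L*, annotated as a pseudogene, had 73.3, 59.9, and 64.3 FPKM in the control group and 109.3, 97.0, and 119.9 FPKM in the case group, without overlap (log2(FC) = 0.80, SE 0.12). All 37 of its windows of 150 bases, the read length, also lie in an overlapping non-coding gene model, so the reads of both models cannot be told apart. *MT1A*, which encodes a further metal-binding isoform, had 15.99, 11.6, and 10.9 FPKM in the control group and 16.02, 14.8, and 13.15 FPKM in the case group, and the groups overlapped (log2(FC) = 0.29, SE 0.16). That value was 0.46 without control replicate 1, 0.18 without control replicate 3, and 0.09 with TPM. The remaining family genes had few reads. *MT1DP* had 27 reads over the control libraries and 17 over the case libraries (log2(FC) = -0.41, SE 0.42, between -0.79 without control replicate 1 and -0.03 without case replicate 1). *MT1JP*, also a pseudogene, had 16 and 8 reads. As for *MT1L*, all windows of 150 bases of these genes lie in overlapping gene models. *MT3*, the isoform known from brain, had 8 and 3 reads, and *MT1P1*, a pseudogene on chromosome 9, had 8 and 10 (log2(FC) = 0.96, SE 1.02). Without control replicate 2 the log2(FC) of *MT1P1* was -0.26.

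**Figure D2:**
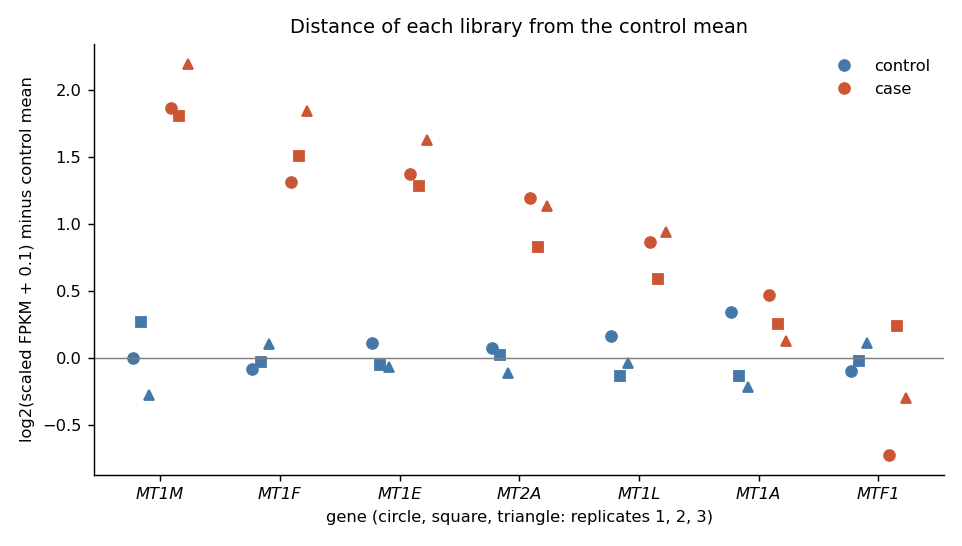
Distance of each library from the control mean, as log2(scaled FPKM + 0.1) minus the control mean (vertical axis), for 6 metallothionein genes and *MTF1*, with circles, squares, and triangles for replicates 1, 2, and 3. The case points of *MT1M*, *MT1F*, *MT1E*, *MT2A*, and *MT1L* lie above all their control points, and those of *MT1A* and *MTF1* overlap them.

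FPKM is per length, so levels can be ordered between genes on that scale. In the control group the order of level was *MT2A*, *MT1E*, *MT1L*, *MT1A*, *MT1M*, *MT1F*, and *MTF1*, and of these neighbours only *MT1M* and *MT1F* overlapped. In the case group the mean of *MT1M* (16.8 FPKM) was above that of *MT1A* (14.7 FPKM), with overlapping libraries, and *MT1M* lay above *MT1F* in every library. The length behind the FPKM values was 942 bases for *MT1M*, 1299 bases for *MT2A*, and 411 bases for *MT1L*, against 511, 914, and 186 exonic bases in GENCODE 44. With the latter lengths the control means would be 8.29, 772.6, and 145.4 FPKM. The fold change of a single gene does not depend on the length, but the order and the shares of the genes do. With the annotated lengths *MT1M* would lie above *MT1F* in every control library and above *MT1A* in every case library, and the *MT2A* share would average 76.1% in the control libraries and 70.7% in the case libraries, a difference of -5.47 percentage points, an alternative added after the data were seen.

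The isoforms resemble each other in sequence, which could divide reads wrongly between them. None of the windows of 150 bases in the transcripts of *MT1E* (1149 windows), *MT1F* (1969), *MT1M* (332), and *MT2A* (1203) occurred in any other gene. Of the 1971 windows of *MT1X*, 8.78% were shared with an overlapping non-coding gene model. At 50 bases, 18.2% of the windows of *MT1M* and 7.1% of those of *MT1E* occurred in other genes, most of them metallothionein genes.

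*MTF1* itself (chr1:37809574-37859592, minus strand, ENSG00000188786) gave no such separation of the groups. It had 2.71, 2.87, and 3.17 FPKM in the control libraries and 1.57, 3.38, and 2.24 FPKM in the case libraries. Case replicate 2 was the highest of all 6 libraries and case replicate 1 the lowest, so the groups overlapped. The means were 2.91 ± 0.235 and 2.40 ± 0.913 FPKM (SD, n = 3), and log2(FC) was -0.26 (SE 0.22), on 211 to 442 reads a library. The overlap does not show that *MTF1* expression was the same in both groups.

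The genes of 3 proteins known to act with MTF1 at promoters were examined beside it. None of *EP300* and *CREBBP*, which encode histone acetyltransferases, and *SP1*, which encodes a zinc finger transcription factor, passed the threshold in limma (adjusted p of at most 0.05). Of these 3, 2 were lower at an unadjusted p under 0.05, as were 16.2% of all genes tested. The voom test on recovered reads called 1, *EP300*. *EP300* had 4.001, 4.401, and 4.43 FPKM in the control libraries and 1.97, 3.78, and 2.17 FPKM in the case libraries (log2(FC) = -0.66, SE 0.21, limma adjusted p = 0.0692). As with *MTF1*, case replicate 2 was nearest to the control libraries. Values for *CREBBP* and *SP1* were -0.32 (SE 0.14) and -0.34 (SE 0.12), with limma adjusted p-values of 0.152 and 0.102. Without case replicate 2, all 3 passed the threshold in the downward direction, as did 12.2% of all genes tested in that fit.

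Zinc transporters set the zinc that metallothioneins can bind. The SLC30 family moves zinc out of the cytosol, and 1 of its 6 genes tested, *SLC30A1*, was upregulated, with 0 downregulated, where 7.34% and 5.84% of all genes tested were. *SLC30A1*, the exporter of the plasma membrane, had 5.78, 6.18, and 5.77 FPKM in the control libraries and 12.3, 16.1, and 14.5 FPKM in the case libraries. Its log2(FC) was 1.33 (SE 0.10, limma adjusted p = 0.00152), and it passed the threshold under every alternative run. *SLC30A4* and *SLC30A7*, whose products load zinc into vesicles and the early secretory pathway, had log2(FC) values of -0.42 (SE 0.36) and -0.22 (SE 0.16) and did not pass. The median over the 6 genes was -0.10.

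The SLC39 family moves zinc into the cytosol. Of its 11 genes tested, 1 was downregulated and 0 were upregulated, where 5.84% of all genes tested were downregulated, and the median log2(FC) was 0.02. The downregulated gene was *SLC39A10*, an importer of the plasma membrane whose gene MTF1 is known to repress. It had 4.31, 4.24, and 3.70 FPKM in the control libraries and 1.61, 2.07, and 1.51 FPKM in the case libraries. Every case library was below every control library, as in 20.4% of all genes tested (log2(FC) = -1.13, SE 0.14, limma adjusted p = 0.00718). Without control replicate 2 its adjusted p was 0.0514 in limma and it was no longer called. *SLC39A11* and *SLC39A3*, next by size, had values of -0.15 (SE 0.11) and 0.11 (SE 0.14) and did not pass.

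**Figure D3:**
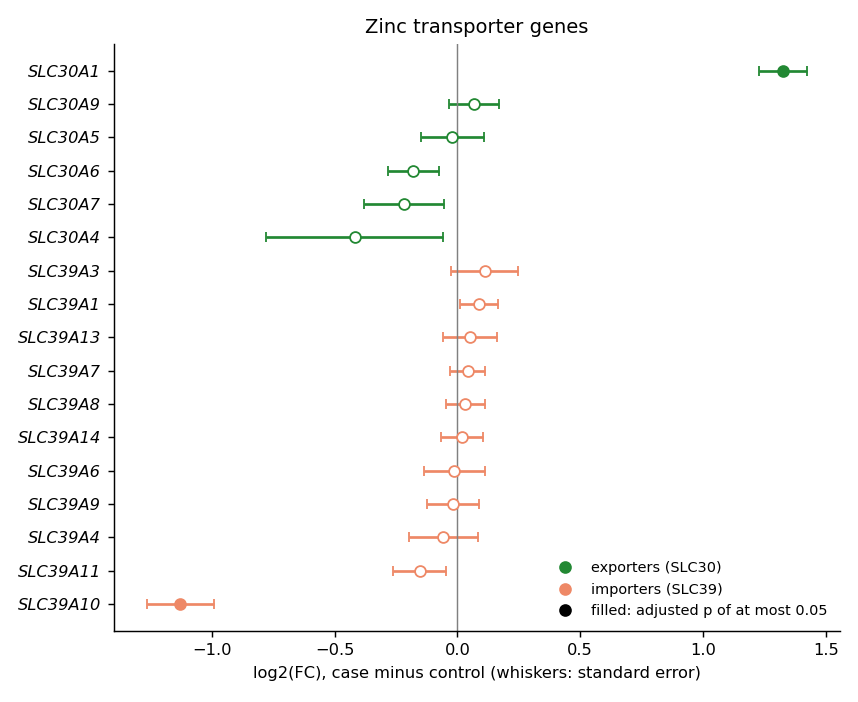
log2(FC) of the case against the control group (horizontal axis, whiskers for the standard error) for the 6 SLC30 and 11 SLC39 genes tested, with filled points for an adjusted p of at most 0.05. *SLC30A1* stands at 1.33 and *SLC39A10* at -1.13, and the other 15 genes did not pass the threshold.

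Outside the family, 6 genes known as MTF1 targets were listed, of which 5 were tested. *SLC30A1* was upregulated and *SLC39A10* downregulated, as above. *GCLC*, which encodes the catalytic subunit of the enzyme that starts glutathione synthesis, had 13.1, 13.4, and 13.2 FPKM in the control group and 13.7, 17.96, and 15.97 FPKM in the case group (log2(FC) = 0.33, SE 0.09, limma adjusted p = 0.0527), and voom called it upregulated. *PGF*, a growth factor gene, had a log2(FC) of -0.36 (SE 0.20, limma adjusted p = 0.248). *SELENOH*, which encodes a selenoprotein, had 0.19 (SE 0.15, limma adjusted p = 0.403). *SLC40A1*, the iron exporter gene, had at most 2 reads in a library and was not tested.

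The metallothionein cluster spans 119.1 kb of chromosome 16, and 17 annotated metallothionein genes and pseudogenes lie in it. Within 500 kb of either end, 9 genes of other kinds were tested, and none passed the threshold in limma, as 13.2% of all genes tested did in either direction. At an unadjusted p under 0.05, 3 were higher and 1 was lower, as were 16.8% and 16.2% of all genes tested, and voom called 1, *NLRC5*. On the side of *MT2A*, *OGFOD1*, *NUDT21*, and *BBS2* had log2(FC) values between -0.09 and 0.14. On the other side, *NUP93*, which encodes a nuclear pore protein, had -0.03 (SE 0.09), and *HERPUD1*, a gene of the response to misfolded protein in the endoplasmic reticulum, had 0.26 (SE 0.09, limma adjusted p = 0.0908). *NLRC5*, a regulator of class I histocompatibility genes, had -0.58 (SE 0.23, limma adjusted p = 0.125). The median over the 9 genes was 0.12.

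**Figure D4:**
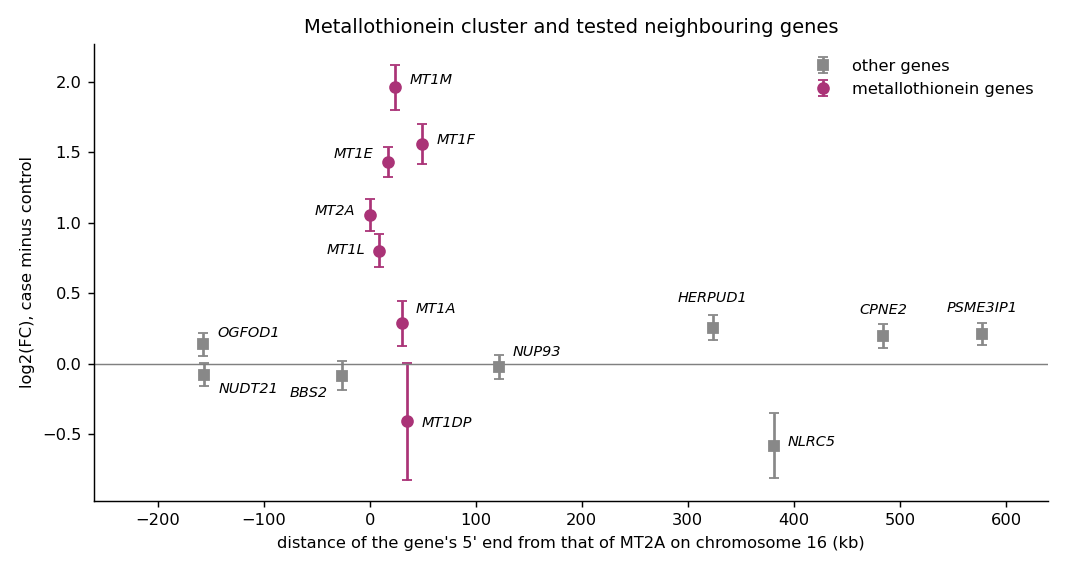
log2(FC) of the case against the control group (vertical axis, whiskers for the standard error) against the distance in kb of the 5′ end of tested genes from that of *MT2A* on chromosome 16. *MT2A*, *MT1E*, *MT1M*, and *MT1F* lie between 1.05 and 1.96. The other tested metallothionein genes of the cluster, *MT1L*, *MT1A*, and *MT1DP*, had values of 0.80, 0.285, and -0.41. Of the 9 neighbouring genes tested, the 8 plotted lie between -0.58 and 0.26.

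The genes whose pattern was most like that of the metallothionein genes were found by the Euclidean distance of their 6 values, as log2(scaled FPKM + 0.1) minus the control mean, from the mean of the 4 tested metallothionein genes. The nearest was *SNHG1*, a host gene of small nucleolar RNAs, at a distance of 0.250, with means of 33.1 and 87.2 FPKM. It was followed by ENSG00000260257 (0.313), *DDIT3* (0.328), *PPP1R15A* (0.368), and ENSG00000269899 (0.403). *DDIT3* and *PPP1R15A* encode a transcription factor and a phosphatase subunit of the integrated stress response. By the same measure *MT1E* lay at 0.181 from the mean to which it belongs, *MT1F* at 0.339, *MT2A* at 0.816, and *MT1M* at 0.849. All 5 of these genes were thus nearer to that mean than *MT2A* and *MT1M*. Values were centred on the control mean, so the distance largely reflects the size of log2(FC). That size was 1.46 for *SNHG1*, 1.62 for *DDIT3*, and 1.48 for *PPP1R15A*, against 1.05 for *MT2A* and 1.96 for *MT1M*. The mean is of genes chosen on this comparison, and no relation between the genes is read from it.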

How the data were processed

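RNA of 3 control and 3 case replicates of HK-2 cells was sequenced as paired reads of 150 bp. Per the labels and the methods of the study, the authors aligned the reads with HISAT2 2.1.0 to GRCh38.p13, counted them on genes with HTSeq 0.6.0, and deposited FPKM values. The selection of RNA, the strandedness, and the annotation version are not given in the sources used here. Counting intervals cover counting error only, since the reads carried no molecular identifiers and may repeat molecules.

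Each library was scaled by its median-of-ratios factor (0.944 to 1.04), and log2(scaled FPKM + 0.1) was fitted in R 4.3.3 with limma 3.58.1 with an intensity trend. The 13599 genes averaging 0.5 FPKM or more were tested, with Benjamini-Hochberg adjustment over all of them and a threshold of 0.05. The factors were computed over these genes. An earlier run had used all genes above 0 in every library, and the change was made after the calls of that run were seen, to follow a description of an earlier treatment of these data. Overlap between groups was read on the scaled values. Whole reads were recovered for all 27922 genes above 0 from the steps of the FPKM values, with the exon length used for 1380 of them, and none was farther than 0.000104 from a whole number. Voom on these reads called 2807 genes. The procedures were tested on simulated data.

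The members and lists were chosen with earlier results of these data known. The genes named are the members, the other family genes above 0, *SLC30A1*, *SLC39A10*, the 3 tested genes with the largest absolute log2(FC) in each other list, the 5 nearest tested neighbours on each side of the cluster, and the 5 nearest profiles. Other genes named were chosen after their values were seen, and some genes of the lists are not reported here. Lists covered zinc exporters and importers, MTF1 cofactors and targets, copper handling, glucocorticoid response, and cell type markers. Alternatives were pseudocounts of 0.01 and 1, no filter, a filter at 1 FPKM, unscaled FPKM, TPM, quantile normalization, no trend, the replicate number as a block, voom, and leaving out each replicate. Symbols and positions came from GENCODE 44 (GRCh38), and sequences from RefSeq (GRCh38.p14).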

Additional observations from a re-analysis of the deposited data

How the results depend on the processing

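As a description, log2(FC) over the alternatives ranged from 1.12 to 1.51 for *MT1E*, 1.37 to 1.68 for *MT1F*, 1.77 to 2.097 for *MT1M*, and 0.74 to 1.17 for *MT2A*, and from -0.51 to -0.03 for *MTF1*. TPM moved the median of all genes to -0.20 and the median of the metallothionein genes from 1.495 to 1.31. Over the whole table, 1792 genes (998 upward, 794 downward) became 2764 with TPM (381 and 2383), 1786 with FPKM as deposited (662 and 1124), 520 without the filter, 852 without the trend, and 2807 with voom. With the factors computed over all genes above 0 in every library, an alternative added after the data were seen, there were 1797 (1056 and 741), and the MTF1 targets called numbered 3 in place of 2. The causes were not tested.

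The cofactors called, 0 in the main result, were 2 with TPM, 1 with voom, and 1 with the replicate block. The copper genes called were 1 in place of 3 without the filter, the glucocorticoid genes 1 in place of 3 without the filter and 1 without the trend, and the neighbouring genes 1 in place of 0 without the trend and 1 with voom. Leaving out 1 replicate at a time gave 72 to 3452 genes called over the table (72 without control replicate 2, 3452 without case replicate 2), 0 to 3 cofactors, 1 to 3 MTF1 targets, 0 to 1 zinc importers, 0 to 4 copper genes, 1 to 5 glucocorticoid genes, and 0 to 1 neighbouring genes. The summed metallothionein ratio stayed between 2.19 and 2.44, and the *MT2A* share difference between -7.68 and -5.15 points. *MT1P1*, on 8 and 10 reads, reversed to -0.26 without control replicate 2 and was 1.75 without control replicate 3. Libraries of the same replicate number showed little correlation in their deviations from the group means (0.0634, 0.0999, and -0.0535). This does not show that the cultures were unpaired. The replicate block gave 1610 genes called. With the block *ATP7B* lost its call (limma adjusted p = 0.0535), and *EP300* and *ERRFI1* gained one (0.0482 and 0.0493).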

Other observations

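Of 8 copper-handling genes tested, 2 were upregulated and 1 was downregulated, where 7.34% and 5.84% of all genes tested were. *SOD1*, the cytosolic copper and zinc superoxide dismutase, had 157.3, 145.2, and 149.0 FPKM in the control libraries and 202.9, 197.4, and 213.8 FPKM in the case libraries (log2(FC) = 0.52, SE 0.08, limma adjusted p = 0.0127). *COMMD1*, which takes part in copper export, also rose (log2(FC) = 0.45, SE 0.11, limma adjusted p = 0.0366). *ATP7B*, a copper-exporting pump, had 1.29, 1.52, and 1.33 FPKM in the control libraries and 0.619, 0.851, and 0.734 FPKM in the case libraries (log2(FC) = -0.76, SE 0.18, limma adjusted p = 0.0346). None of these 3 passed the threshold without control replicate 1, 2, or 3 or without case replicate 3, and their highest limma adjusted p-values, all without control replicate 2, were 0.0784, 0.151, and 0.153. *ATP7B* was not called without the filter or with the replicate block, and *COMMD1* not without the filter, without the trend, or with TPM.

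Metallothionein genes are also known to respond to glucocorticoids, and of 9 genes of that response tested, 2 were upregulated and 1 was downregulated, again beside 7.34% and 5.84% of all genes tested, with a median log2(FC) of -0.11. *TSC22D3*, a glucocorticoid-induced leucine zipper gene, had 2.56, 3.03, and 2.55 FPKM in the control libraries and 5.44, 5.36, and 5.94 FPKM in the case libraries (log2(FC) = 1.09, SE 0.11, limma adjusted p = 0.00368). It stayed past the threshold under each alternative run. *DUSP1*, a phosphatase gene, rose (log2(FC) = 0.49, SE 0.12, limma adjusted p = 0.0365), and *FKBP5*, which encodes a chaperone of the glucocorticoid receptor and was chosen after its value was seen, fell (log2(FC) = -0.37, SE 0.09, limma adjusted p = 0.04). *ERRFI1* had 0.38 (SE 0.11, limma adjusted p = 0.0543). *DUSP1* and *FKBP5* were not called without control replicate 1, 2, or 3 or without case replicate 3, without the filter, or without the trend, and *DUSP1* was also not called with TPM (limma adjusted p = 0.0585).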
